A study of Drosophila melanogaster with 4 samples.

Results

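The genes described here encode the standard subunits of the 26S proteasome, the cytosolic chaperonin CCT and 3 proteins that attach, remove or act on ubiquitin. They were chosen by name: probe sets were taken where the platform's gene table gave 1 current or older symbol from a list of 43, testis-type copies left out. Of the 43 genes, 36 had such a probe set, out of 11982 genes measured in the series, and each was represented by exactly 1 probe set. Measured were 6 of 7 alpha and 6 of 7 beta subunits of the 20S core, 4 of 6 ATPases and 10 of 12 other subunits of the 19S particle, all 8 chaperonin subunits, and 2 of 3 ubiquitin-handling genes. Prosalpha1, Prosbeta1, Rpt1, Rpt6, Rpn9, Rpn10 and Uba1 were not analysed here.

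Total RNA from pools of adult Canton-S fruit flies was measured on 4 Affymetrix arrays of the Drosophila Genome 2.0 design, so that every age on every diet had 1 array. The groups were young flies (1 to 3 days, where titles give day 1 and the series design 3 days) and old flies (40 days), each on sucrose-yeast food that held either 100 µM curcumin, a polyphenol of turmeric added from an ethanol stock, or ethanol alone. All larvae had been raised on the same cornmeal medium, and the labels give 30 male with 30 female flies for every pool. The question put in the series design was how ageing and curcumin feeding bear on gene expression. The labels name neither the body part used for RNA nor the time spent on curcumin food.

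The proteasome degrades proteins tagged with ubiquitin. Its 20S core is a barrel of alpha rings around beta rings, whose inner beta subunits hold the protease sites, and the 19S particle caps the barrel, binds the ubiquitin chain, removes it and unfolds the substrate with a ring of ATPases. The chaperonin CCT, also called TRiC, is a double ring of 8 different subunits that folds newly made actin, tubulin and other proteins. In fruit flies many proteasome subunits have a second gene that is used in the testis, and proteasome function in older flies is widely studied in relation to lifespan.

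Values are log2 MAS5 signals rescaled to a common trimmed mean, with a floor at a signal of 19.3 below which signals were not ranked. All 36 genes were above the floor on all 4 arrays, with signals from 368 to 2418. A level was compared only within a probe set. Since each group is a single array, differences between arrays have no replicate check and are given as higher or lower without a p-value. As a measure of the spread between probe sets, 422 other genes with more than 1 probe set above the floor were used. Both sets were read on the same pair of arrays, so their gap does not measure the spread between arrays or pools. The log2 differences given by probe sets of the same gene lay a median of 0.31 apart for age without curcumin, 0.32 for age with curcumin, 0.19 for curcumin in young flies and 0.24 for curcumin in old flies, and the 90th percentiles were 0.95, 0.87, 0.59 and 0.69.

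The marker genes did not match the label of mixed sexes. Of 17 genes for yolk, eggshell and oocyte proteins, a list chosen after these values were seen, 13 were below the floor on every array, among them osk, bcd, vas and the chorion genes Cp15, Cp16, Cp18 and Cp19. The highest signal of the list was 57.9, for the yolk protein gene Yp3. The male accessory gland genes read between 1136 and 8334, and their summed signal over 5 genes ranged from 14414 in old flies without curcumin to 28514 in young flies without it. No array stood apart in this, so no result could be given with such a library left out. The germline and ovary list summed to between 224 and 249.96 signal units over 11 genes, with 8 of them below the floor on all arrays, including the defining genes osk, bcd and vas.

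**Figure D1:**
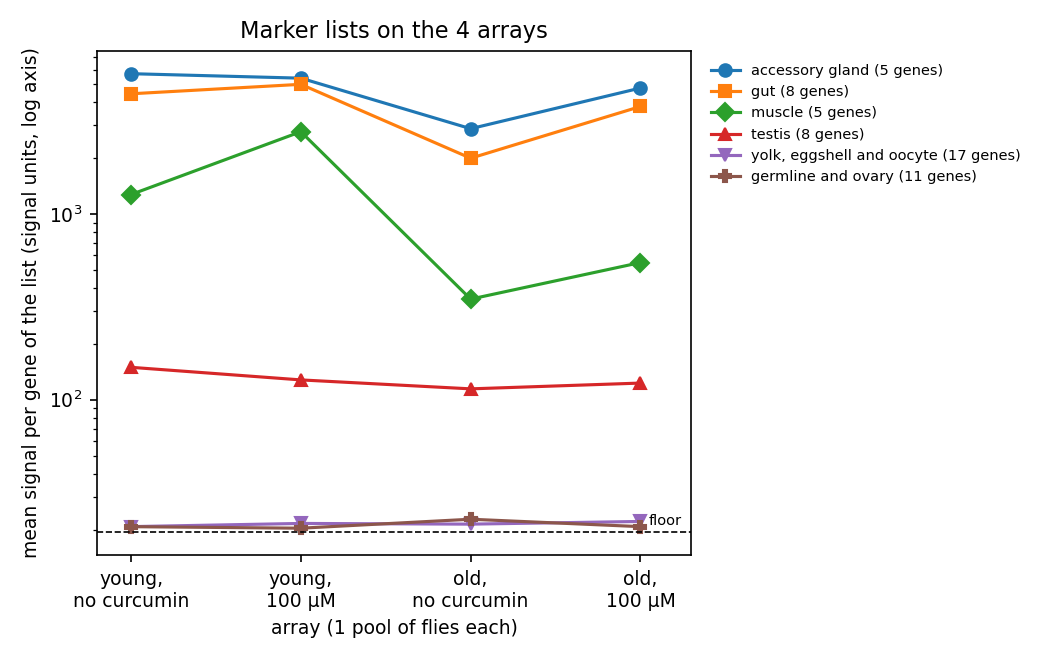
Mean signal per gene (log axis, signal units) of 6 marker lists on the 4 arrays, with the floor of 19.3 as a dashed line and lines joining the values of a list. The accessory gland and gut lists lie highest on every array, and both lists of female and germline genes lie close to the floor.

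All 8 chaperonin genes had their highest signal in old flies without curcumin and their lowest in young flies with curcumin. Among the 8675 genes above the floor on all arrays, 37.8% were highest on the first of these arrays and 32.3% lowest on the second. CCT2, which encodes the beta subunit of the ring, read 1133 in young flies without curcumin, 1019 in young flies with it, 2311 in old flies without it and 1625 in old flies with it. It was 2.04-fold higher with age without curcumin and 1.60-fold higher with curcumin, and both old arrays lay above both young ones. Its difference without curcumin, a log2 value of 1.03, was above the 90th percentile of the spread between probe sets. CCT6, the zeta subunit, followed with 551 and 505 in young flies and 1054 and 709.7 in old flies, without and with curcumin, and its groups did not overlap by age either.

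CCT5, the epsilon subunit, read 809 and 622 in young flies without and with curcumin and 1249.8 and 925 in old flies. Its age difference was nearly the same on both diets, 1.54-fold without and 1.49-fold with curcumin. CCT3, the gamma subunit, read 455 and 378 in young flies and 746 and 467 in old flies, so its old flies with curcumin were close to its young flies without it. This gene had the largest curcumin difference of the 36 in old flies, 1.60-fold lower.

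CCT7, the eta subunit, read 415 and 368 in young flies without and with curcumin and 639.5 and 461 in old flies. CCT4, the delta subunit, read 460.2 and 419 in young and 676 and 539 in old flies. CCT8, the theta subunit, read 535 and 509.9 in young and 726 and 579 in old flies. In these 3 genes both old arrays were above both young arrays. This held for 7 of the 8 chaperonin genes, against 31.6% of the 8675 genes above the floor on all arrays. CCT1, the alpha subunit, read 518 and 439 in young and 733 and 506 in old flies. It was the 1 chaperonin gene whose groups overlapped by age, because the old flies with curcumin read below the young flies without it.

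**Figure D2:**
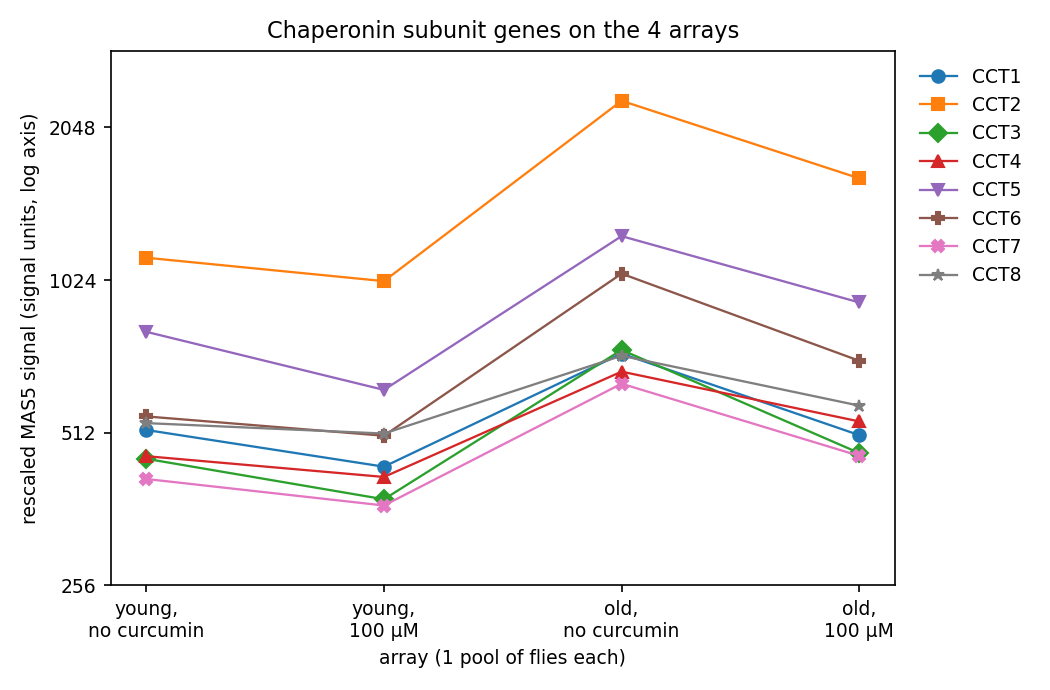
Rescaled signal (log axis, signal units) of the 8 chaperonin genes on the 4 arrays, 1 marker and colour per gene, with lines joining the values of a gene. Every line peaks in old flies without curcumin and is lowest in young flies with curcumin.

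Without curcumin the chaperonin genes differed with age by 0.44 to 1.03 log2 (median 0.63), and 5 of 8 were at least 1.5-fold higher in old flies. Among all 9714 genes compared, 14.7% were at least that much higher, and the median difference was -0.02. All 8 differences were larger than the median gap between probe sets, against 28.5% of all genes. On curcumin food the median was 0.34, with a range of 0.18 to 0.67, and CCT2 was the only one of the 8 at least 1.5-fold higher, against 10.5% of all 9752 genes compared. Here 5 of 8 were larger than the median gap, against 22.8%.

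Curcumin food went with lower chaperonin signals at both ages. In old flies the median log2 difference was -0.49, with a range of -0.68 to -0.33, beside -0.01 over all 9613 genes compared. CCT3 was the 1 chaperonin gene at least 1.5-fold lower, against 6.88% of all genes, and all 8 exceeded the median gap between probe sets, against 26.9%. In young flies the median was -0.16, with a range of -0.38 to -0.07, beside -0.04 over all genes, and 0 of 8 were at least 1.5-fold lower against 3.23% of all genes. Here 3 of 8, namely CCT1, CCT3 and CCT5, exceeded the gap, a share near the 26.8% of all genes. All 8 were lower with curcumin at both ages, as were 32.4% of the 8675 genes above the floor on all arrays.

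The chaperonin age difference was smaller on curcumin food for all 8 genes, as it was for 48.8% of the 8675 genes. The difference between the diets had a median of -0.30 on the log2 scale and ran from -0.05 for CCT5 to -0.44 for CCT6. With 1 array per group this interaction could not be tested. Age without curcumin and curcumin in old flies share the array of old flies without curcumin, so a high reading on that array alone raises the first difference and lowers the second.

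Markers of several other tissues, but not of all, differed along the same arrays. The summed signal of 8 gut genes was 35554 in young and 15993 in old flies without curcumin, and 39983 in young and 30377 in old flies with it. Over 5 muscle genes the sums were 6371 and 1742 without and 13888 and 2741 with curcumin. Over 6 fat body genes they were 6868 and 4353 without and 6765 and 5666 with curcumin. Over 5 neuron and eye genes they were 933 and 1001 without and 1238 and 953 with curcumin, lowest in young flies without it. Taken singly, 4 of these 5 were lower with age without curcumin (median -0.07 log2), against 51.1% of all genes. The exception was trp, with 267 in young and 410 in old flies. The germline and ovary sum, with most of its genes below the floor, was highest in old flies without curcumin. The gut, muscle, fat body, accessory gland and testis sums were all lowest in old flies without curcumin, where the chaperonin signals were highest, and their part in the chaperonin differences was not tested. In such RNA from many cell types, fewer cells of a type and less RNA per cell cannot be told apart.

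The alpha subunits form the outer rings of the 20S core and its gate. Prosalpha6 had the largest age difference among them, with 711 and 704 in young flies without and with curcumin and 1041 and 851 in old flies. Its fold difference with age was 1.46 without and 1.21 with curcumin, higher in old flies, and the ages did not overlap. Prosalpha2 read 1309.9 and 1246 in young and 1614 and 1437 in old flies, and Prosalpha7 1217 and 1153 in young and 1369 and 1233 in old flies, also without overlap. Prosalpha3 read 1115 and 1044 in young flies and 1332 and 1054 in old flies, so that only the old flies without curcumin stood higher.

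Prosalpha5 read 1424 and 1499 in young and 1598 and 1345 in old flies, with log2 age differences of 0.17 without and -0.16 with curcumin. Prosalpha4 went differently from the others of the ring. It read 794 and 607 in young flies without and with curcumin and 730.3 and 711 in old flies, highest in young flies without curcumin. With each array centred on its median, its log2 age difference without curcumin was 0.08 in place of -0.12, so its highest array depended on the scaling. Its curcumin difference in young flies, 1.31-fold lower, was the largest of the 36 genes in that comparison and exceeded the median gap.

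Among the beta subunits, Prosbeta3 had the largest age difference. This structural subunit read 1720.4 and 1609.99 in young flies without and with curcumin and 2288 and 1740.2 in old flies, higher by 1.33-fold without and by 1.08-fold with curcumin. Prosbeta4 read 1318 and 1285 in young and 1607 and 1342 in old flies. Prosbeta2, which holds the trypsin-like site, read 1184 and 1073 in young and 1239 and 1125 in old flies, a flat profile with an age difference of 0.07 log2 on both diets.

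Prosbeta5, the subunit with the chymotrypsin-like site, read 1345 and 1288 in young and 1499 and 1229 in old flies. Prosbeta6 read 1219 and 1213 in young and 1390.1 and 1117 in old flies, and Prosbeta7 2013 and 1977 in young and 2191 and 1866 in old flies. These 3 genes were highest in old flies without curcumin and lowest in old flies with it, so their age differences had opposite signs on the diets. None of these age differences exceeded the median gap between probe sets, while the curcumin differences in old flies of Prosbeta5 (-0.29 log2) and Prosbeta6 (-0.32 log2) did.

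Over the 12 measured core genes, 11 were highest in old flies without curcumin, against 37.8% of the 8675 genes above the floor on all arrays, and Prosalpha4 was the exception. Without curcumin 11 of 12 were above 0 with age, against 48.9% of all genes, with a median log2 difference of 0.18. Centring each array on its median put all 12 above 0, while the median of all genes moved from -0.02 to 0.18. Relative to all genes, the core median was 0.20 with either scaling. With the trimmed-mean scaling 0 of 12 were at least 1.5-fold higher, against 14.7% of all genes. On curcumin food 8 of 12 were above 0, against 49.6%, with a median of 0.07. In old flies all 12 were lower with curcumin, against 51.7% of all genes, with a median of -0.25 and a range of -0.40 to -0.04. Of these, 7 exceeded the median gap, against 26.9%. In young flies 11 of 12 were lower, against 56.2% of all genes, with a median of -0.07.

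**Figure D3:**
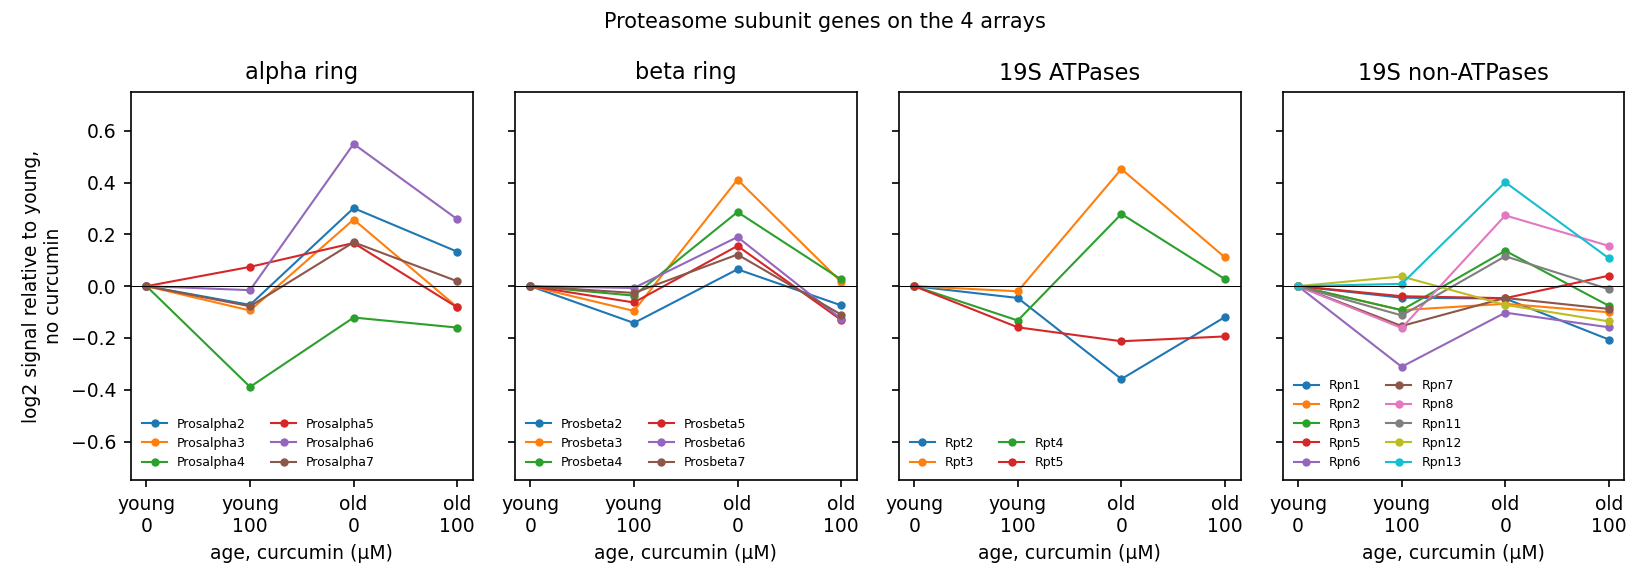
Log2 signal relative to young flies without curcumin for the measured proteasome genes, in panels for alpha subunits, beta subunits, 19S ATPases and other 19S subunits, with lines joining the values of a gene. The core genes mostly peak in old flies without curcumin, and the 19S panels hold genes on both sides of 0.

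The ATPases of the 19S base unfold the substrate and open the core, and the 4 measured ones differed in direction. Rpt3 read 612 and 604 in young flies without and with curcumin and 838 and 661 in old flies, and Rpt4 739.6 and 675 in young and 897 and 754 in old flies. In both genes the old arrays were above the young arrays. Rpt2 instead read 625 and 606 in young flies and 488 and 576 in old flies, 1.28-fold lower with age without curcumin and 1.05-fold lower with it. Rpt5 read 747 and 669 in young and 645 and 653 in old flies, also with both old arrays below both young ones. The log2 differences of Rpt3 (0.45) and Rpt2 (-0.36) without curcumin exceeded the median gap, and those of Rpt4 (0.28) and Rpt5 (-0.21) did not.

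The remaining base subunits are Rpn1 and Rpn2, large scaffold proteins, and Rpn13, a ubiquitin receptor. Rpn13 read 729 and 734 in young flies without and with curcumin and 963 and 786 in old flies, 1.32-fold higher with age without curcumin. Rpn1 read 796 and 772 in young and 770.02 and 689.99 in old flies, and Rpn2 835 and 783 in young and 797 and 779 in old flies. Both scaffold genes were slightly lower with age on either diet, by at most 0.16 log2.

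In the lid, Rpn8 and Rpn11 form the pair that carries the deubiquitinating site on Rpn11. Rpn8 read 731 and 653 in young flies without and with curcumin and 883 and 814 in old flies, higher with age by 1.21-fold and 1.25-fold, with no overlap. Rpn11 read 878 and 812 in young and 951 and 871 in old flies, with the groups overlapping. Rpn6, a lid scaffold, read 1039.8 and 838 in young and 969 and 931 in old flies, and its curcumin difference in young flies (-0.31 log2) exceeded the median gap. Rpn12 read 739 and 758 in young and 703 and 672 in old flies, lower with age on both diets. The age differences of the other 3 lid genes, Rpn3, Rpn5 and Rpn7, lay between -0.05 and 0.14 log2 on both diets.

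Over the 14 measured 19S genes, 6 were above 0 with age without curcumin, against 48.9% of all genes, with a median of -0.05, a sign that turned to 0.16 when each array was centred on its median. That centring put 12 of the 14 above 0, and it also moved the median of all genes from -0.02 to 0.18. Relative to all genes, the 19S median was -0.02 with centring and -0.03 with the trimmed-mean scaling. On curcumin food 9 were above 0, against 49.6%, with a median of 0.07. With curcumin 12 of 14 were lower in young flies, against 56.2% of all genes (median -0.09), and 11 of 14 in old flies, against 51.7% (median -0.09). With the trimmed-mean scaling none was at least 1.5-fold apart in any pair of arrays. Among all genes 14.7% were that much higher and 19.4% lower with age without curcumin, and 10.5% and 9.97% on curcumin food. With curcumin the shares were 2.96% and 3.23% in young flies and 12.9% and 6.88% in old flies.

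TER94, the fly VCP, is an ATPase that pulls ubiquitinated proteins out of membranes and complexes. It read 2023 and 1735 in young flies without and with curcumin and 2418 and 2308 in old flies, with age higher by 1.20-fold without and by 1.33-fold with curcumin, with no overlap between the ages. It was the 1 gene outside the chaperonin whose age difference on curcumin food (0.41 log2) exceeded the median gap. Usp14, a deubiquitinase that binds the proteasome, read 739.97 and 689 in young and 663 and 634 in old flies, lower with age on both diets by 0.16 and 0.12 log2.

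Taking the 36 genes as a whole, 5 were at least 1.5-fold higher with age without curcumin and 0 lower, against 14.7% and 19.4% of all genes compared, and the 5 were CCT2, CCT3, CCT5, CCT6 and CCT7. On curcumin food 1 was higher and 0 lower, against 10.5% and 9.97%. With curcumin 0 were higher and 0 lower in young flies, against 2.96% and 3.23%, and 0 higher and 1 lower in old flies, against 12.9% and 6.88%. At 2-fold, CCT2 was higher with age without curcumin and no other of the 36 genes passed in any pair. Among all genes 4.21% passed 2-fold upward and 9.81% downward there, 3% and 2.63% with age on curcumin food, 0.389% and 0.41% with curcumin in young flies, and 5.21% and 1.25% in old flies. At this scaling the count past 1.5-fold was near or below the background. Centring each array on its median gave 12 higher and 0 lower with age without curcumin, against 24.1% and 13.9% of all genes, and 5 lower with curcumin in old flies, against 11.2%. The small differences mostly ran the same way: the medians were 0.22, 0.10, -0.09 and -0.24 for age without and with curcumin and for curcumin in young and old flies, beside -0.02, -0.005, -0.04 and -0.01 over all genes compared.

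Counted by the median gap between probe sets, 12 of 36 were higher with age without curcumin and 1 was lower, against 28.5% and 30.6% of all genes. On curcumin food 6 were higher and 0 lower, against 22.8% and 22.8%. With curcumin 0 were higher and 6 lower in young flies, against 19.1% and 26.8%, and 0 higher and 18 lower in old flies, against 27.3% and 26.9%. The largest of these counts was that of genes lower with curcumin in old flies, a comparison that shares the array of old flies without curcumin with the age comparison.

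By direction, 26 of 36 were above 0 with age without curcumin and 10 below, against 48.9% and 51.1% of all genes compared, and 26 and 10 on curcumin food, against 49.6% and 50.4%. With curcumin 33 were lower and 3 higher at either age, against 56.2% and 43.8% of all genes in young flies and 51.7% and 48.3% in old flies. Lower with curcumin at both ages were 30 of 36, against 32.4% of the 8675 genes above the floor on all arrays. Higher with age on both diets were 22 of 36, against 37.3% of the 8675 genes. Another 6 were lower on both and 8 had opposite signs, counts given without a share over all genes. Both old arrays were above both young arrays for 17 of 36 genes, against 31.6% of the 8675 genes, and 7 of the 17 were chaperonin genes. The highest array was old flies without curcumin for 26 genes (37.8% of the 8675), young flies without curcumin for 8 (22.2%), and young and old flies with curcumin for 1 each (24.7% and 15.2%). The lowest was young flies with curcumin for 24 (32.3%), old flies with curcumin for 8 (18.1%), old flies without it for 3 (34.4%) and young flies without it for 1 (15.3%). For 5 of 36 both old arrays were below both young arrays, against 30.8%, namely Rpt2, Rpt5, Rpn1, Rpn12 and Usp14. The direction of genes with small differences depended on the scaling. Across all settings the count above 0 with age ran from 26 to 34 without curcumin and from 26 to 33 on curcumin food. With curcumin, 0 to 7 were above 0 in young flies and 1 to 3 in old flies. Centring each array on its median gave the 34, with the all-gene median moved to 0.18.

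**Figure D4:**
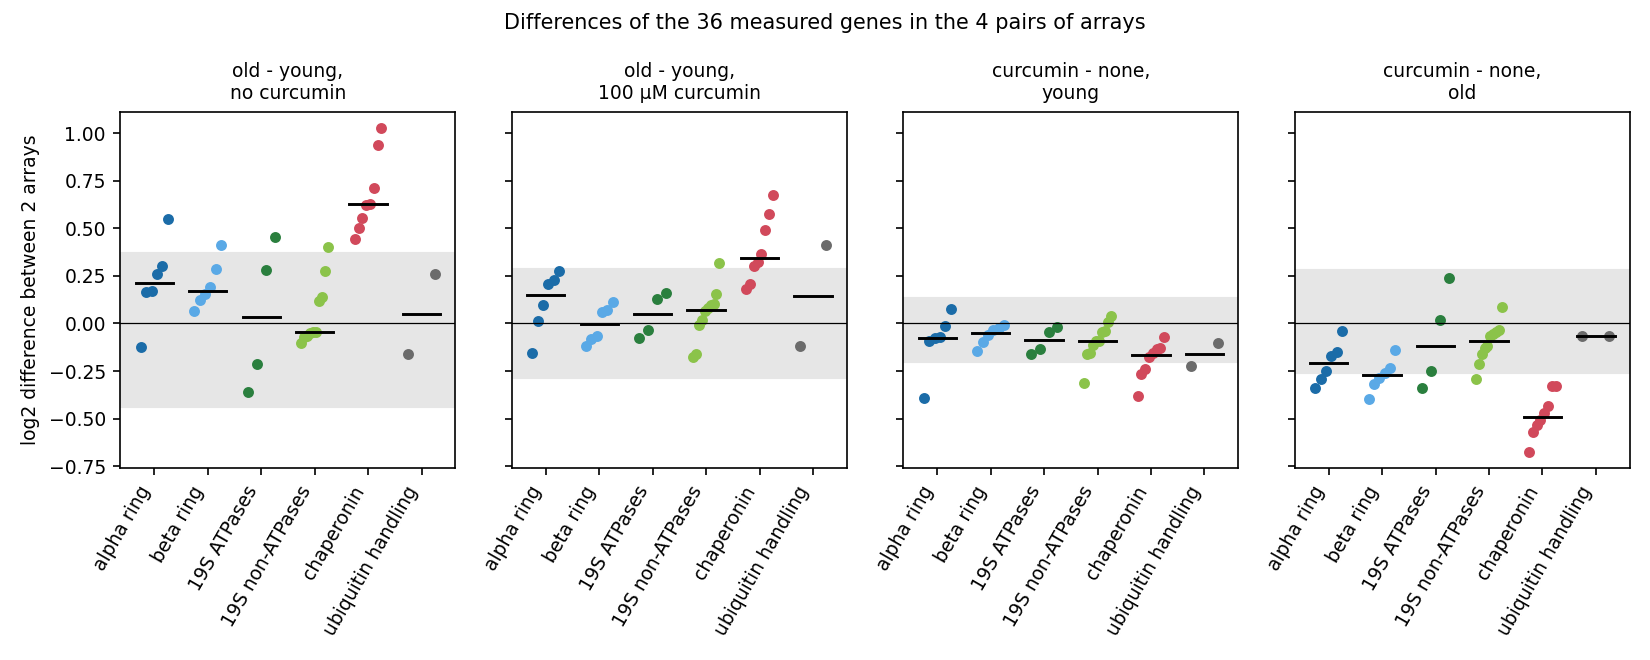
Log2 differences of the 36 genes in the 4 pairs of arrays, by complex, with 1 point per gene, a black bar at the median of each group and a grey band from the lower to the upper quartile of all genes compared. The 8 chaperonin points all lie above the band for age without curcumin and all below it for curcumin in old flies.

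In limma, age and curcumin were fitted together as additive terms to 9563 genes, which leaves 1 residual degree of freedom per gene. For age, 0 of 36 genes passed a Benjamini-Hochberg adjusted p of 0.05, as did 0% of all genes. At an unadjusted p below 0.05 there were 1088 genes higher and 1148 lower among all genes, 11.4% and 12%, and 3 of 36 higher and 0 lower here. The 3 were CCT2 (log2 0.85, SE 0.20, adjusted p 0.154), CCT6 (0.71, SE 0.21, adjusted p 0.178) and CCT5 (0.60, SE 0.18, adjusted p 0.180). Each was higher in both pairs of arrays. The other chaperonin estimates ran from 0.31 for CCT8 to 0.51 for CCT3, with limma adjusted p of 0.361 and 0.232. For TER94 the estimate was 0.33 (SE 0.18, limma adjusted p 0.321) and for Prosalpha6 0.41 (SE 0.19, limma adjusted p 0.268).

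For curcumin, limma called 0 of 36 genes and 0% of all genes, and 0 of 36 reached an unadjusted p below 0.05, against 1.88% of all genes higher and 1.71% lower. The estimates with the largest size were CCT3 (-0.47, SE 0.20) and CCT5 (-0.41, SE 0.18), both with an adjusted p of 0.829 and lower with curcumin in both pairs. The labels do not say that pools were raised apart. The p-values therefore cover the spread between the 4 arrays, which may be technical, and the residual holds any interaction together with noise.

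**Figure D5:**
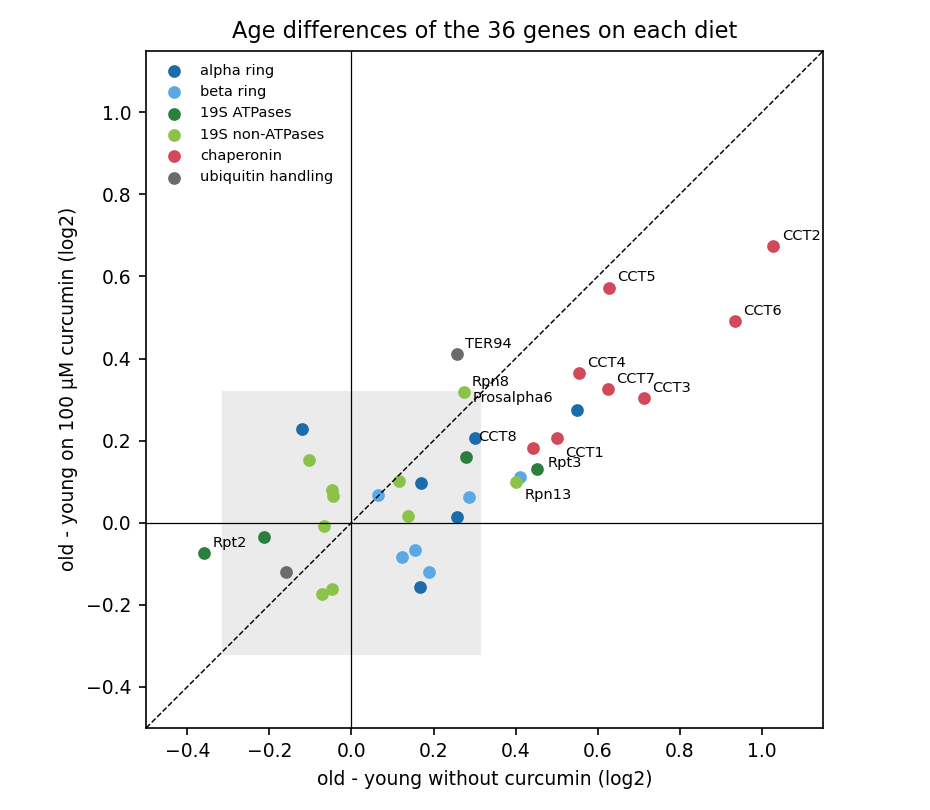
Log2 age difference without curcumin (x axis) and on 100 µM curcumin (y axis) of the 36 genes, coloured by complex, with the dashed line of equal differences and a grey box at the median gap between probe sets of a gene. The chaperonin genes lie to the right of the box and below the line, TER94 above it, and most proteasome genes inside the box.

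Other genes of the pathway gave mixed values. Among 9 measured genes of proteasome assembly and regulation, limma called 0, with 1 higher with age at an unadjusted p below 0.05, against 11.4% of all genes. Pomp, the maturation protein of the core, read 358 and 412 in young flies without and with curcumin and 624 and 525 in old flies. REG, the fly 11S activator, read 395 and 405 in young and 614 and 521 in old flies, so that in both genes the old arrays were above the young ones. Uch-L5, a deubiquitinase of the 19S base, was lower with age by 0.26 log2 without and 0.61 with curcumin. The list median was 0.13 without and 0.15 with curcumin.

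Of 10 genes of VCP cofactors and degradation at the endoplasmic reticulum, limma called 0, with 2 higher with age at an unadjusted p below 0.05, against 11.4% of all genes. Hrd3, a cofactor of the ER ubiquitin ligase, read 314 and 267 in young flies without and with curcumin and 480.3 and 393 in old flies. Faf2, which recruits VCP, read 730.4 and 615 in young and 1014 and 901 in old flies, while Npl4, a substrate adaptor of VCP, read 2219 and 2207 in young and 1974 and 1692 in old flies. The list had a median age difference of -0.06 without and 0.05 with curcumin.

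The 4 genes that encode ubiquitin had a median age difference of -0.02 without and -0.08 with curcumin. The polyubiquitin gene Ubi-p5E was at 0.17 log2 without and 0.00 with curcumin. The ubiquitin fusion gene RpL40 was at -0.31 and -0.42, and RpS27A, another fusion gene, at 0.00 and -0.16. Of 8 measured ubiquitin-conjugating enzymes and their relatives, 7 were above 0 with age without curcumin (median 0.36) and 5 with it (median 0.20), against 48.9% and 49.6% of all genes. Limma called 0 of them, with 1 higher at an unadjusted p below 0.05, against 11.4% of all genes. Ubc2 read 428 and 355 in young flies without and with curcumin and 744 and 606 in old flies, ben was higher by 0.47 and 0.42 log2, and Ubc7 by 0.41 and 0.34.

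Prefoldin delivers unfolded actin and tubulin to the chaperonin. Its subunit gene Pfdn2 read 353 and 489 in young flies without and with curcumin and 841 and 541 in old flies, with age higher by 2.38-fold without and by 1.11-fold with curcumin. Pfdn5, another subunit, was at -0.04 and -0.54 log2, and viaf, of the phosducin-like family of chaperonin cofactors, at 0.49 and -0.07. The 7 genes of this list had a median of 0.20 without and -0.07 with curcumin, and all 7 were lower with curcumin in old flies, against 51.7% of all genes. Of 6 cytoskeletal substrates listed, betaTub56D was the 1 gene measured above the floor. This tubulin gene read 1889 and 1876 in young and 2823 and 2033 in old flies, highest in old flies without curcumin like the chaperonin genes.

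The testis-type copies of proteasome subunits had lower signals in old flies without curcumin. Of 13 measured copies, 12 could be compared. All 12 were below 0 with age without curcumin, against 51.1% of all genes, with a median of -0.94. At least 1.5-fold lower were 8 of the 12, against 19.4% of all genes. Prosalpha3T, Prosalpha4T1 and Prosbeta5R2 were at the floor of 19.3 in old flies without curcumin, which limits the size of their differences. On curcumin food the median was -0.27, and in old flies curcumin went with a median of 0.71. Prosbeta4R1 read 79.98 and 86.7 in young flies without and with curcumin and 23.1 and 61.6 in old flies, whereas its standard counterpart Prosbeta4 was 1.22-fold higher with age without curcumin. Prosalpha6T read 121 and 124 in young and 52.0 and 103 in old flies, against 1.46-fold higher for Prosalpha6. Prosbeta2R1 read 61.2 and 66.4 in young and 35.8 and 41.7 in old flies, so this copy was also low in old flies on curcumin food. The testis marker list summed to between 916 and 1196 over 8 genes, lowest in old flies without curcumin, and its part in this was not tested. Limma called 0 of these copies for age, with 2 of 12 lower at an unadjusted p below 0.05, against 12% of all genes.

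Heat shock proteins are mostly chaperones of other families. Of 15 heat shock protein genes listed, 7 were measured, and Hsp22, Hsp23, Hsp70Aa and Hsp83 were among those not measured. Of the 7, 2 were above 0 with age without curcumin, against 48.9% of all genes, with a median log2 difference of -0.19. At least 1.5-fold higher were 0 of 7, against 14.7% of all genes, and 2 of 7, Hsp27 and Hsp68, were at least that much lower, against 19.4%. On curcumin food 4 of 7 were above 0 with age, against 49.6% of all genes, with a median of 0.02. Hsp27, a small heat shock protein, read 431 and 338 in young flies without and with curcumin and 232 and 333 in old flies, lowest in old flies without curcumin. Hsc70-3, the BiP of the endoplasmic reticulum, read 2452 and 2293 in young and 3260 and 3103 in old flies, and Hsp68 215 and 176 in young and 136 and 141 in old flies. The difference between these genes and the chaperonin was not tested.

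Among the 36 probe sets, 7 carry the suffix _s_at, which Affymetrix gives to sets whose probes can match transcripts of more than 1 gene. They are those of Prosbeta5, Prosbeta7, Rpn6, Rpn13, CCT1, CCT2 and CCT3. Signals of these genes could therefore include transcripts of similar sequence, and the deposited values do not separate them. Another 4 sets, those of Prosalpha5, Prosalpha7, CCT5 and TER94, carry _a_at, the suffix for sets matching several transcripts of 1 gene. The 5 chaperonin genes whose probe sets do not carry _s_at had age differences from 0.44 to 0.94 log2 without curcumin. Those of CCT1, CCT2 and CCT3, whose sets carry it, were 0.50, 1.03 and 0.71.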

How the data were processed

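The authors' deposited log2 signals, 1 per probe set, came from MAS5 per the submitters' processing notes, with its version not given in the sources used here. That the scale is log2 was read off the values. They were turned back to signals, scaled so that each array had the same 2% trimmed mean (factors 0.975 to 1.06), given a floor at the 40th percentile over all arrays (19.3) and put on the log2 scale again. Precision is limited by having 4 arrays. Of 18769 probe sets, 13647 named 1 gene, 402 several and 4720 none in the platform table; symbols were updated by gene number to the Release 6 gene table (13544 matched). The probe set with the highest mean stood for a gene. No probe sequences or promoters were used. Pairs of arrays were compared over genes above the floor on at least 1 of them. limma 3.58.1 (R 4.3.3) fitted age and curcumin over genes above the floor on at least 2 arrays. Tested on simulated data, the fit called few of the genes changed 2-fold, so a count of 0 says little about differences of that size. Members, lists and tests were chosen with earlier results of these data known. All members are named. Of each related or compared list the 3 genes with the largest mean age difference among those above the floor on all arrays are named. The list of yolk, eggshell and oocyte genes was added after marker values were seen. Alternatives tried were other scalings, floors, a pseudocount of 16, probe set averages, a 2-fold threshold and other limma settings, and their effects are in the closing section. Python 3.11.15, numpy 2.4.6 and pandas 2.3.3 were used.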

Additional observations from a re-analysis of the deposited data

Results flagged for a closer look

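A signal lay outside the comparisons: 1 probe set is listed for both Prosalpha1 and its copy Prosalpha1R and was therefore not used for either gene. It read 2745 in young flies without curcumin, 2825 in young flies with it, 3106 in old flies without it and 2979 in old flies with it, far above the floor of 19.3. Its log2 age difference was 0.18 without and 0.08 with curcumin, beside medians of 0.21 and 0.15 over the 6 measured alpha subunits. None of the 36 genes had age or curcumin differences of opposite sign that both exceeded the median gap between probe sets.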

How the results depend on the processing

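The medians over the 36 genes and over the chaperonin kept their sign in all 4 comparisons under each scaling, floor, pseudocount and probe set rule, and the chaperonin median stayed between 0.59 and 0.83 for age without curcumin and between -0.60 and -0.48 for curcumin in old flies. The 19S median for age without curcumin lay between -0.07 and 0.16. Centring on each array's median moved the all-gene median for age without curcumin to 0.18 from -0.02; relative to it the 36 genes were at 0.25 in place of 0.24. That setting gave 12 members at least 1.5-fold higher for age without curcumin in place of 5, against 24.1% of all genes. For age on curcumin food it gave 2 in place of 1, against 12.6%. For curcumin in old flies it gave 5 lower in place of 1, against 11.2%. Without rescaling 3 in place of 1 were higher with age on curcumin food, against 14.8% of all genes, and the all-gene median there was 0.12. A 2-fold threshold left 1 for age without curcumin, 0 for age with curcumin and 0 for curcumin in old flies. limma called 953 genes for age after centring on array medians and 8 when the floor was raised to percentile 60, in place of 0, and the cause was not tested. CCT2 then had an adjusted p of 0.0315 with centring, within a range of 0.0315 to 0.219 over the limma settings. The other chaperonin genes stayed above an adjusted p of 0.05 in each limma setting. With 1 array left out, the age effect is the difference of the remaining complete pair, and ran from 0.67 to 1.03 for CCT2 and from 0.21 to 0.50 for CCT1. The age and curcumin effects of the chaperonin genes other than CCT5 differed by more than 1.5 times between the remaining pairs, the curcumin effect from -0.68 to -0.27 for CCT3, -0.57 to -0.13 for CCT6 and -0.33 to -0.07 for CCT8. No paired analysis was possible because the labels give no replicate numbers and each group holds 1 array.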
